A study of Arabidopsis thaliana with 4 samples.

Results

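DFD (AT3G55630) encodes the cytosolic folylpolyglutamate synthetase of Arabidopsis thaliana, and its splicing was compared between the ecotypes Columbia (Col) and Landsberg erecta (Ler). The deposited table of alternative splicing events lists 27 events under this gene, of 14133 events in 5268 genes. The gene was selected on its number of events, the 4th highest of any gene against a median of 2, and on the absence of any event that the authors marked as different between the ecotypes. Both facts therefore describe the choice and are not findings. The events were taken by gene identifier and ordered by their Col coordinates. The RNA came from Col seedlings (2 samples) and Ler seedlings (2 samples), both 14 days old and without a stated treatment, grown on sucrose-containing plates at 22 °C in days of 8 h light and 16 h dark. The labels give the first leaf as the source and, in another field, shoots, and they do not say whether the samples of an ecotype were grown separately. The table holds an inclusion level for Col and an inclusion level for Ler, with no value per sample and no expression level, so the spread between samples is not shown and the labelled tissue could not be checked against marker genes. The depth behind each level is not given, and every level below is the authors' pooled value, without SD or n. Several DFD levels equal ratios of small whole numbers, as few reads would give, so large differences can rest on few reads.

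Folylpolyglutamate synthetases add glutamate residues to tetrahydrofolate. The glutamate tail keeps folates inside the cell and its compartments, and most folate-dependent enzymes prefer polyglutamylated forms. Plants have separate synthetases for plastids (DFB), mitochondria (DFC) and the cytosol (DFD), and the folates they make carry one-carbon units for methionine, purine, thymidylate and glycine-serine metabolism. In plants the commonest form of alternative splicing is retention of an intron, followed by the choice between nearby acceptor (3') or donor (5') splice sites.

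DFD lies on the plus strand at chr3:20636607-20639492 (TAIR10), 51 bp after eIF6A and 154 bp before AT3G55640, both on the same strand. RefSeq annotates 7 transcripts. The one used as the main transcript here has 15 exons and 14 introns and encodes 492 codons between 20636785 and 20639395. Positions of splice sites are given as the flanking exon base, as the table does: a donor by the last base of the exon before the intron, an acceptor by the first base of the exon after it. The 27 events comprised 16 retained introns (59.3%, against 52.4% of all events), 6 alternative 3' sites, 4 alternative 5' sites and 1 skipped exon. They used 15 donors and 15 acceptors, and on the Col reference every one of these introns starts with GT and ends with AG. Of the 30 sites 23 are annotated and 7 are not. All 27 intervals had the same length in Ler, and a single offset related the Col and Ler coordinates along the gene, so the table gives no insertion or deletion between the first and the last event.

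Events that share a donor or an acceptor are not separate choices. Grouped by shared sites, the 27 events fell into 10 groups, of which 6 held several events and 4 held 1 event. The largest groups had 6 events each. One lies around the skipped exon and the other around 3 competing acceptors. The sequences at which sites compete are shown first, because most of the events turn on them. Each is the plus strand of TAIR10 from the RefSeq copy, with the GT or AG of every competing site in capitals.
Acceptors 20637570 and 20637575 (chr3:20637550-20637584): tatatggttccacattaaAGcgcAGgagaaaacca
Donors 20637592 and 20637658 (chr3:20637583-20637668): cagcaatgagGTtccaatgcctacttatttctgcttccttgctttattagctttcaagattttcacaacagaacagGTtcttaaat
Acceptors 20637712 and 20637740 (chr3:20637692-20637749): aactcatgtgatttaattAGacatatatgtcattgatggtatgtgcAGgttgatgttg
Donors 20637793 and 20637796 (chr3:20637784-20637806): tgcgactaatGTgGTaagaaaag
Donors 20638046 and 20638057 (chr3:20638037-20638067): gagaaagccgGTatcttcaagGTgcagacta
Acceptors 20638269, 20638283 and 20638295 (chr3:20638249-20638304): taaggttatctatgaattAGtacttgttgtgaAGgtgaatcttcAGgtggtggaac
Donors 20638421 and 20638435 (chr3:20638412-20638445): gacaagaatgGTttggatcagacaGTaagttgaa
Donors 20638884 and 20638886 (chr3:20638875-20638896): attgatcaagGTGTttttaact

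In these runs 9 sites compete with a site of the main transcript, at distances from 2 to 66 bp. Each site was scored against all annotated Arabidopsis splice sites, as the log-odds of 3 exon and 6 intron bases for donors and of 14 intron and 1 exon base for acceptors, and placed as a percentile among 136307 annotated introns. Of the 9 competing sites, 8 scored below the main site. The widest gap was at the donor pair 3 bp apart, where the other donor stood at percentile 1.46 and the main one at 73.0. At the acceptors 28 bp apart the percentiles were 15.2 for the other site and 82.4 for the main one. The exception was donor 20638046, at percentile 47.0 against 21.5 for the main donor 20638057. Acceptors 20638295 and 20638283 had nearly the same score, at percentiles 45.6 and 49.3. A score describes the letters of a site and was not tested as a cause of its use.

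**Figure D1:**
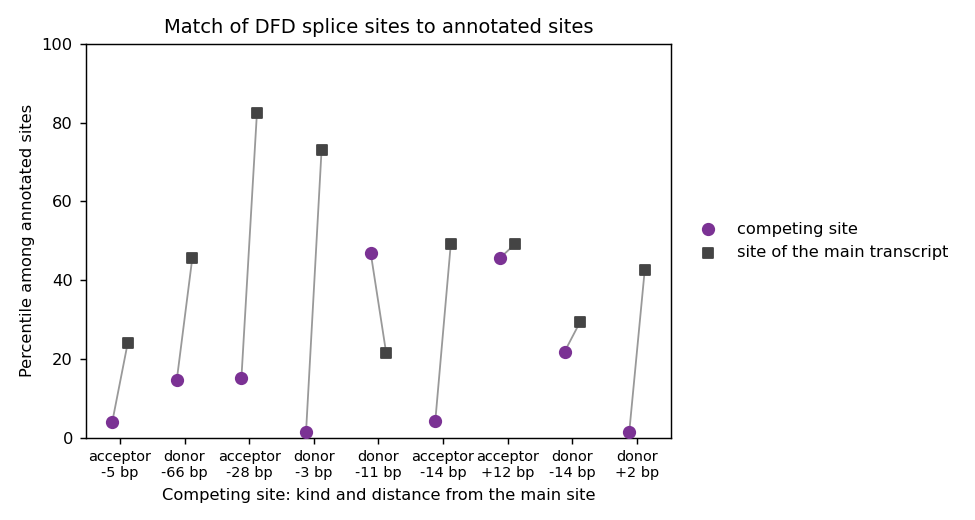
Percentile of each of the 9 competing DFD sites (circles) and of the main-transcript site it competes with (squares) among annotated Arabidopsis sites of the same kind; the horizontal axis gives the kind of site and its distance in bp from the main site. The competing site lies below the main one except at the donor 11 bp upstream, which is at 47.0 against 21.5.

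For introns of the main transcript the retention level refers to an annotated junction. Such events are listed for 6 of the 14 introns. Intron 3 stood out, with a retention level of 54.8% in Col and 53.1% in Ler. Intron 2, just upstream of it, was at 17.7% in Col and 17.9% in Ler. These neighbouring introns were far apart in level, and the ecotypes differed by 1.65 points at intron 3 and by 0.237 points at intron 2. Intron 9 was at 14.0% in Col and 14.9% in Ler. Intron 10 was at 6.61% in Col and 11.7% in Ler, and intron 11 at 4.97% in Col and 10.5% in Ler. Intron 14, the last one, was at 23.2% in Col and 30.9% in Ler. The order from intron 3 at the top to intron 11 at the bottom was the same in both ecotypes, and 5 of the 6 levels were higher in Ler. With no spread between samples, it is not known which neighbours in this order differ.

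**Figure D2:**
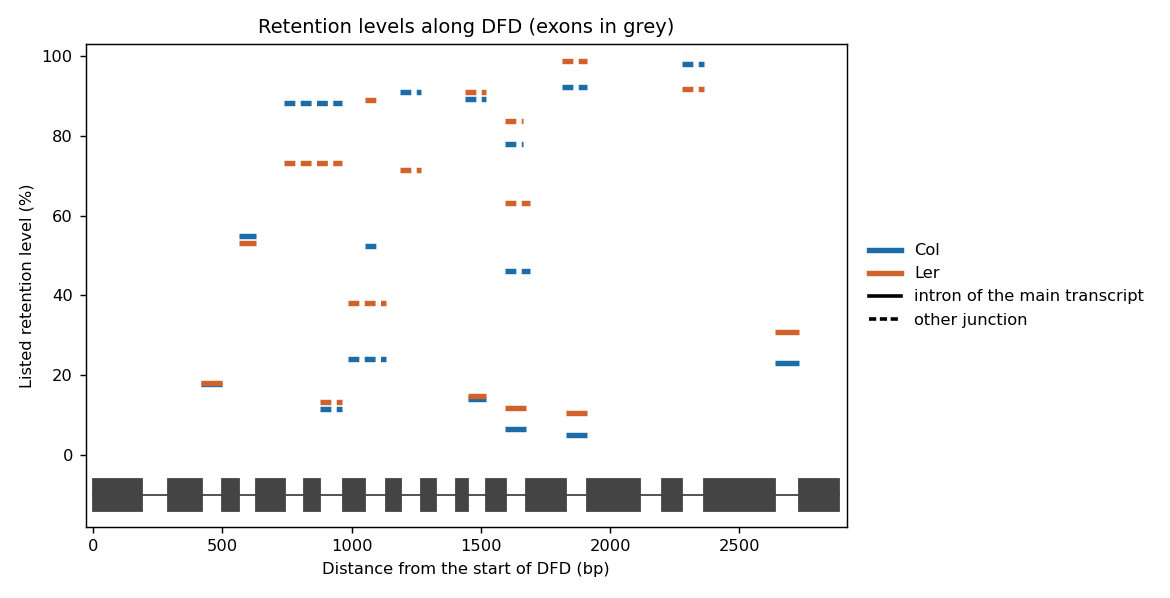
Listed retention level in percent of the 16 DFD retention events against distance in bp from the start of the gene, in Col (blue) and Ler (orange), with solid bars for introns of the main transcript, dashed bars for other junctions and exons drawn below. Intron 3 lies near the middle of the scale at 54.8% in Col and 53.1% in Ler, the other main introns lie between 4.97% and 30.9%, and most dashed bars lie higher.

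Intron 3 has 66 bp, a multiple of 3, yet it does not extend the reading frame. Read on from the first start codon, the retained intron brings a TGA after 80 codons. The sequence is printed for this reason, with the intron's GT and AG and that stop codon in capitals, and beside it intron 11, which carried the lowest q value of the gene.
Intron 3 (chr3:20637166-20637242): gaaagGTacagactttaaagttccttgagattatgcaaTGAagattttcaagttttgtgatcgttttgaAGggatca
Intron 11 (chr3:20638431-20638521): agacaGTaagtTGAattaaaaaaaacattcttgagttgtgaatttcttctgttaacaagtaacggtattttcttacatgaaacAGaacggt
Retention of intron 11 brings a TGA after 288 codons, a few bases into the intron. Across the 6 main introns with a retention event, retention ended the reading frame at another stop than the annotated one in all 6, and in 4 of them that stop lies within the intron itself. Retention of intron 2 gave 75 codons, of intron 9 gave 242 and of intron 10 gave 247. Retention of intron 14 gave 493 codons, ending inside the last intron with no exon junction after the stop. These reading frames were computed on the Col reference, with 1 change at a time and the other introns spliced, and the table does not link events on 1 transcript.

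Translation could also start downstream. Of the 7 annotated transcripts 3 use the first start codon, at 20636785. A further 3 are annotated to start at 20637135, of which 2 keep intron 2 and 1 begins after the first start codon. This start gives 435 codons in the frame of the main protein. The last, which keeps introns 1 to 3, is annotated to start at 20637599 and has 358 codons. The plastid and mitochondrial paralogs carry targeting sequences at this end of the protein, as background. The table does not say which start codon was used.

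The cassette exon was nearly always included. This 61 bp exon (20637424 to 20637484, coding) is skipped by a junction from donor 20637346 to acceptor 20637570, which is absent from the annotation. Skipping made up 0.359% in Col and 1.58% in Ler, a ratio of 4.39 in favour of Ler. The same junction is set against other junctions in 2 more events. Against the donor 20637484 its share was 1.60% in Col and 8.24% in Ler, and against the acceptor 20637424 it was 0.461% in Col and 1.91% in Ler. Over its 223 bp interval retention was listed at 88.2% in Col and 73.1% in Ler. All 4 levels go with more of the skipping junction in Ler, but they share 1 junction and may rest on few reads of it. They count as 1 observation. In the authors' deposited table their q values were 0.196 for the exon, 0.0976 for the donor, 0.205 for the acceptor and 0.520 for retention, and none was marked. Skipping removes the 61 bp and adds 5 bp of the next exon, and the computed reading frame then ends after 112 codons.

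That next exon has a pair of acceptors 5 bp apart, and this was the most evenly used site choice of the gene. The upstream acceptor 20637570 took 24.9% in Col and 21.0% in Ler (q = 0.479 in the authors' deposited table), although no RefSeq transcript of DFD uses it and its score stands at percentile 3.85, against 23.9 for 20637575. Its 5 added bases shift the frame, which ends after 146 codons. For the 85 bp before it, retention was listed at 11.4% in Col and 13.2% in Ler. No retention event is listed for the 90 bp intron that ends at the annotated acceptor.

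The exon that begins at these acceptors can end at either of 2 donors 66 bp apart. The upstream donor 20637592 is annotated in 1 transcript. It took 6.23% in Col and 5.23% in Ler (q = 0.827 in the authors' deposited table). Its use removes 66 bp and leaves the frame intact, with 470 codons. For its 147 bp, retention was listed at 24.0% in Col and 38.1% in Ler (q = 0.458 in the authors' deposited table). The adjoining intron also has an unannotated acceptor, 20637712, 28 bp upstream of the main one. This acceptor took 1.55% in Col and 0.211% in Ler, a ratio of 7.31 in favour of Col (q = 0.134 in the authors' deposited table). The retention level of the same junction, over 53 bp, was 52.4% in Col and 88.9% in Ler, and this difference of 36.5 points was the largest of the gene. Its q value in the authors' deposited table was 0.0682. Both levels go with less of this junction in Ler, and they rest on the same junction. Levels of 0.211% and 88.9% in Ler can come from very few reads of it. The ratio and the largest difference are therefore uncertain. Use of this junction would end the frame after 164 codons.

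Donor 20637793, 3 bp upstream of the main donor of intron 7, has only a retention event. That level was 90.9% in Col and 71.4% in Ler, the second largest difference at 19.5 points (q = 0.538 in the authors' deposited table). The donor is annotated in 1 transcript and shortens the protein by 1 codon, to 491. Its GT overlaps the last bases of the main exon, as the printed run shows, and no event sets the pair of donors against each other.

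At intron 9, the donor 20638046 lies 11 bp upstream of the main donor 20638057 and took 2.00% in Col and 1.86% in Ler. This was the smallest difference of any event with a level above 0, at 0.140 points. The retention level listed for the junction from this donor was 89.1% in Col and 90.9% in Ler, while that of the main intron over almost the same bases was 14.0% in Col and 14.9% in Ler. The odds of the 2 retention levels gave 50.2 uses of the main donor per use of the other in Col and 57.3 in Ler. The site event itself gave 49.0 in Col and 52.8 in Ler. The same calculation for the donors 20637484 and 20637346, described above, came out less alike. Retention levels gave 58.1 uses of 20637484 per use of 20637346 in Col and 17.9 in Ler, where the site event gave 61.5 in Col and 11.1 in Ler. How the authors computed a retention level is not given, so a high one at a rarely used site does not by itself show that the intron is mostly kept.

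Intron 10 has 1 donor and 3 competing acceptors, and 6 of the 27 events describe it. The site levels of the near acceptor, against the middle and against the far one, were combined into shares of the 3 acceptors. The near acceptor 20638269 took 1.51% in Col and 2.01% in Ler. The middle acceptor 20638283, the annotated one, took 87.9% in Col and 89.2% in Ler. The far acceptor 20638295 took 10.6% in Col and 8.79% in Ler. The order of the acceptors was the same in both ecotypes and no share differed by more than 1.77 points. The 3 pairwise levels set the same 3 junctions against each other. The product of their odds around the circle was 0.998 in Col and 0.997 in Ler. A product near 1 would follow from shared junction reads, so it is no separate check of the levels. Retention levels ran the other way, from 6.61% in Col and 11.7% in Ler for the middle acceptor to 46.2% in Col and 63.2% in Ler for the far one and 78.0% in Col and 83.6% in Ler for the near one. From retention levels the middle acceptor was used 50.2 times as often as the near one in Col and 38.6 times in Ler, and from the site event 58.2 times in Col and 44.4 times in Ler. For the middle against the far acceptor the same ratios were 12.1 in Col and 12.9 in Ler from retention, against 8.30 in Col and 10.1 in Ler from the site event. For the far against the near acceptor they were 4.15 in Col and 2.98 in Ler from retention, against 7.0 in Col and 4.38 in Ler from the site event. The far acceptor removes 12 bp and leaves 488 codons in frame. The near one adds 14 bp and the frame then ends after 238 codons.

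**Figure D3:**
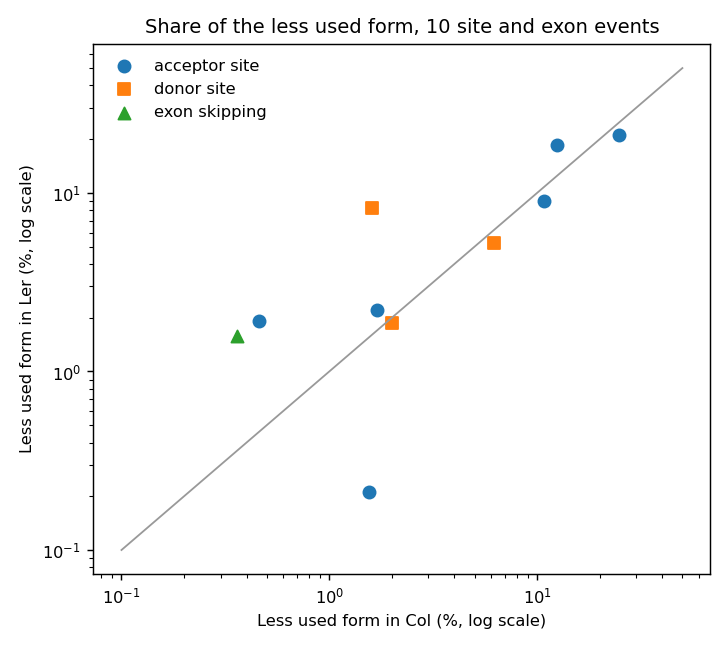
Share of the less used site, or of exon skipping, in percent on log axes, Col on the horizontal and Ler on the vertical axis, for the 10 DFD site and exon events with a level above 0; points are events and the line marks equal shares. The 3 points farthest above the line all measure the junction that skips the 61 bp exon, and the point farthest below it is acceptor 20637712, at 1.55% in Col and 0.211% in Ler.

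In intron 11 the unannotated donor 20638421, 14 bp upstream of the main donor, has a retention level of 92.2% in Col and 98.6% in Ler and no site event. The main intron of the same acceptor had 4.97% in Col and 10.5% in Ler. The q value of that event, 0.0186 in the authors' deposited table, was the only one of the gene under 0.05. The difference was 5.57 points, and the event is not marked. At intron 13 the donors 20638884 and 20638886 are 2 bp apart. The longer exon, ending at 20638886, is listed at 0 in both ecotypes, whereas the retention level of its junction was 97.9% in Col and 91.7% in Ler. A level listed at 0 may stand for a form that was not seen or for a failed estimate. Here the retention levels of the same junction leave a spliced part in both ecotypes. The site level and the retention level therefore do not match on whether it was used.

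Of the 10 DFD junctions outside the main transcript, 3 kept the annotated stop codon, with 470, 488 and 491 codons. The other 7 led to an earlier stop, after 112 to 426 codons. The frame-keeping junctions are the 66 bp donor choice, the far acceptor of intron 10 and the donor of intron 7. Their site levels, where a site event is listed, were 6.23% in Col and 5.23% in Ler for the donor, and 10.7% in Col and 9.0% in Ler for the far acceptor set against the annotated one. The most used unannotated site, acceptor 20637570, shifts the frame.

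The comparison of the ecotypes asks how far the splicing of this gene has diverged. None of the 27 events is marked, against 7.46% of all 14133 events, which is the property by which the gene was chosen. The rule behind the marks is not given, and an unmarked event can still differ. A q value under 0.05 in the authors' deposited table was listed for 1 of 27 events (14.3% of all events), and under 0.05 with at least 10 points for 0 (8.41% of all events). Marks and q values come from the same comparison, so these low counts are not separate from the choice of the gene. A difference of at least 20 points, whatever the q value, was found for 1 event (9.82% of all events). The median absolute difference was 3.93 points in DFD and 3.78 over all events. With 1 event per group of events that share a splice site, it was 6.01 points over 10 DFD events and 4.03 points over 8506 events of all genes. In DFD the event kept was the first of each group, mostly a retention event, so this value also depends on which events were kept. For retention the median absolute difference was 5.90 points in DFD and 5.19 over all retention events. For site and exon events it was 1.33 points in DFD and 2.56 over all of these. Differences of at most 5 points made up 14 of the 27 DFD events (51.9%) and 57.2% of all events. The 5 DFD events that differ by more than 10 points are all retention events of junctions outside the main transcript. They were the intervals of 53 bp (36.5 points), of 80 bp at donor 20637793 (19.5 points), of 92 bp at the far acceptor of intron 10 (17.0 points), of 223 bp (15.2 points) and of 147 bp (14.1 points).

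**Figure D4:**
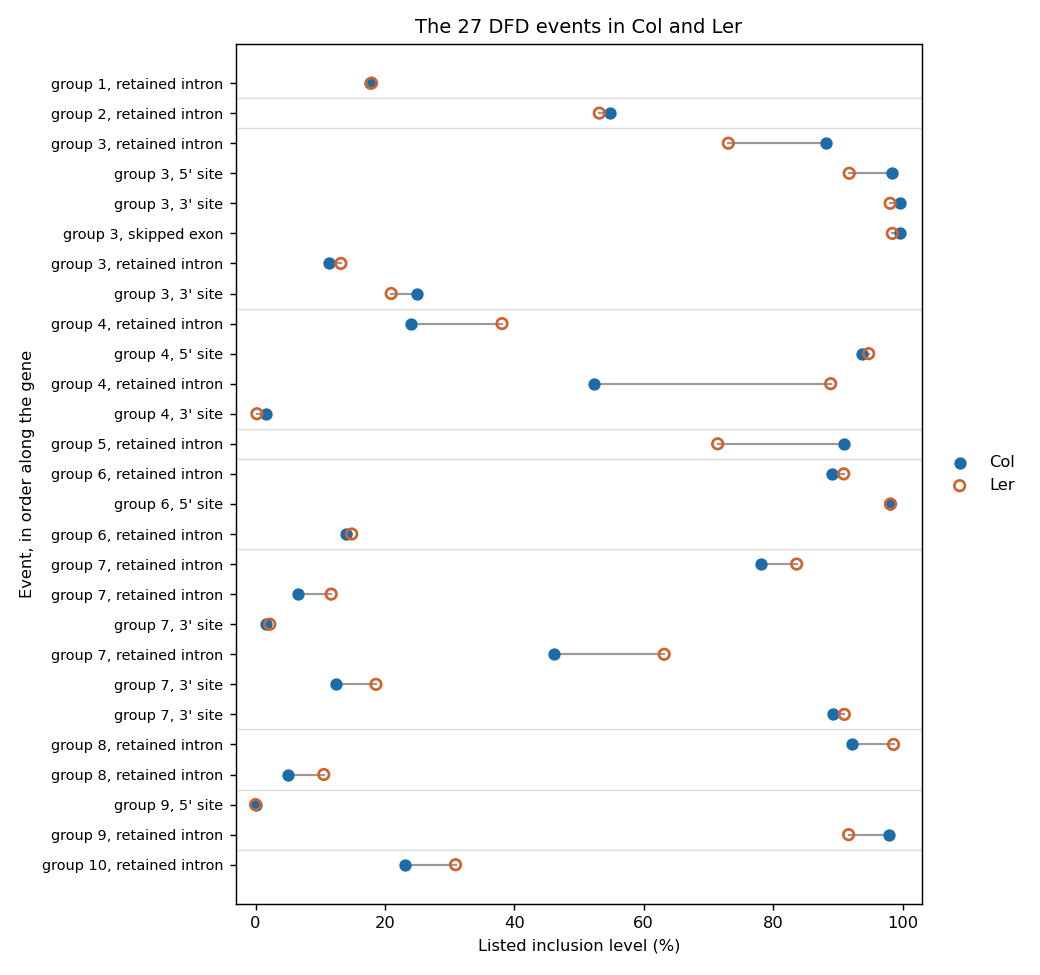
Listed inclusion level in percent of each of the 27 DFD events in Col (filled) and Ler (open), ordered by Col position from top to bottom and labelled by splice-site group, with lines between groups. The widest gap is the 53 bp retention event of group 4, at 52.4% in Col and 88.9% in Ler, and the site and exon events differ by at most 6.64 points.

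In direction, 9 DFD events were higher in Col, 17 were higher in Ler and 1 was equal, with a median Col minus Ler difference of -0.87 points. Among the 16 retention events 4 were higher in Col and 12 in Ler, where over all 7399 retention events 51.2% were higher in Ler. Site and exon events were split evenly, with 5 in each direction. Retention events of 1 group cover the same bases and none of these differences is marked, so the direction is given as a count only.

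Among the 47 genes with at least 15 events, DFD ranked 26th from the lowest by its median absolute difference, in a range from 0.209 to 14.3 points. Of these genes 15, DFD included, had no marked event. The genes whose median was nearest to the 3.93 points of DFD were AT5G56850 (3.94 points, 15 events, 1 marked), UBA2A, an RNA-binding protein (3.97 points, 15 events, 1 marked), and CBL10, a calcium sensor of the calcineurin B-like family (3.76 points, 18 events, 0 marked). This likeness rests on 1 median per gene over the 2 ecotypes and on every event. With 1 event per splice-site group in each gene, the median of DFD was 6.01 points, which ranked 28th from the lowest in a range from 0.0274 to 36.2 points.

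**Figure D5:**
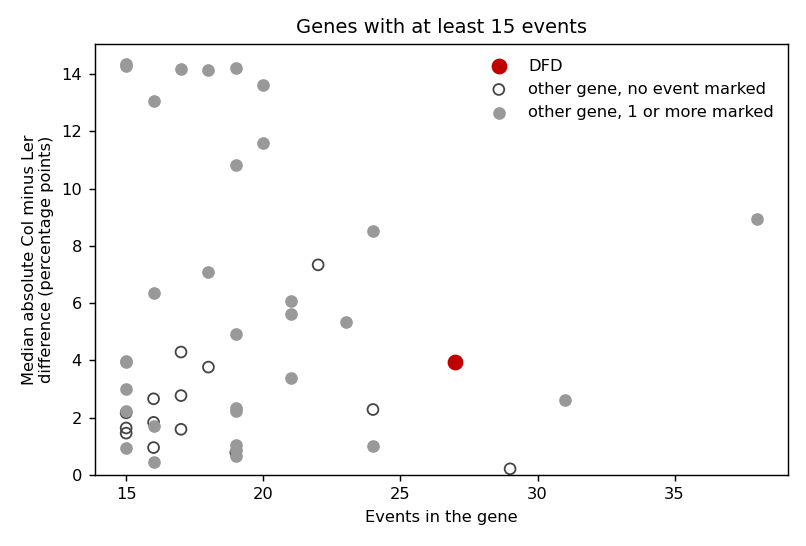
Median absolute Col minus Ler difference in percentage points against the number of events, for the 47 genes with at least 15 events; points are genes, DFD is red and genes without a marked event are open. DFD has 27 events and a median of 3.93 points, in a range from 0.209 to 14.3.

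The paralogs DFB and DFC share a run of 8 coding exons with DFD whose lengths are identical, 66, 110, 61, 84, 57, 61, 47 and 78 bp. In DFD, 15 of the 27 events lie within this run and touch 6 of its 7 introns. The table lists 1 event for DFB and 2 for DFC. How strongly the 3 genes were expressed is not in the table, so their numbers of events cannot be compared as splicing. DFB had a retention event over 197 bp at 84.0% in Col and 86.5% in Ler. Intron 11 of DFD, at 4.97% in Col and 10.5% in Ler, lies outside this run. Counted by exon order after the run, it pairs with a DFC intron whose retention event is marked. The exons beside it have 153 and 207 bp in DFD and 159 and 303 bp in DFC, so this pairing is less certain than one within the run, and DFD has 15 coding exons and DFC 16. The DFC intron was at 47.0% in Col and 25.6% in Ler (q = 3.13e-05 in the authors' deposited table). The ecotype with the higher level was Ler for DFD and Col for DFC, and the difference between the genes was not tested. In intron 5 the acceptor choice of DFD was at 24.9% in Col and 21.0% in Ler. The corresponding intron of DFC carries its other event, an alternative 3' site at 1.87% in Col and 3.52% in Ler.

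Of 41 listed genes of folate synthesis, polyglutamylation and one-carbon metabolism, 25 had events, 91 in all. DFD held 29.7% of them, and the next highest number in a gene was 8. The 64 events outside DFD lay in 24 genes, and 3 of them (4.69%) were marked, against 7.46% of all events in the table. A difference of at least 20 points, whatever the q value, was listed for 10 of the 64 (15.6%), against 9.82% of all events. Of the 3 marked events, 2 were higher in Col and 1 was higher in Ler. One is the DFC intron. FOLB2, a dihydroneopterin aldolase of pterin synthesis, retained an intron of 304 bp at 28.8% in Col and 5.30% in Ler. GGH1, a gamma-glutamyl hydrolase that cleaves the glutamate tail of folates, retained one of 100 bp at 1.78% in Col and 12.5% in Ler. The largest unmarked differences were in ATMS1, a methionine synthase (80.0% in Col and 9.68% in Ler), in aminodeoxychorismate synthase, a p-aminobenzoate synthesis enzyme named emb1997 in the annotation (17.1% in Col, 48.1% in Ler), and in 5-FCL, 5-formyltetrahydrofolate cycloligase (65.0% in Col, 93.3% in Ler). Their q values in the authors' deposited table were 2.19e-05, 0.0689 and 0.140. The ATMS1 event thus had a low q value and a difference of 70.3 points without a mark. An unmarked event is therefore not shown to be alike in the ecotypes.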

How the data were processed

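Polyadenylated RNA of 4 samples was sequenced. Per the submitters' processing notes, TopHat and TAIR10 were used, with no version given. The inclusion level was deposited by the authors as a fraction, 1 value per ecotype, per the file headers, with a direction sign and a q value. Not given in the sources used here are the methods behind levels, signs and q values, the strandedness of the reads and the depth. Levels were multiplied to percent. Of 7389 retention intervals with both coordinates, 4750 (64.3%) equalled an annotated intron in the RefSeq copy of TAIR10, and 0 did when shifted by 1 bp. No count or sample test could be run, so the authors' signs were counted. Differences are Col minus Ler.

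Splice sites were scored as log-odds against genomic base composition. Acceptor shares came from odds of pairwise levels. Reading frames were computed for 1 change to the main transcript at a time. All DFD events are described; folate genes were named if they are DFB or DFC, were marked, or were among the 3 largest unmarked differences, 1 per gene. The gene, lists and alternatives were chosen with earlier results of these data known. Grouping was tested on made-up events with a known answer. Python 3.11.15, numpy 2.4.6, pyfaidx 0.9.0.4 and matplotlib 3.10.9 were used.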

Additional observations from a re-analysis of the deposited data

How the results depend on the processing

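The count of marked DFD events was 0 as reported and 0 with a q value under 0.05 and at least 10 points. It was 1 with a q value under 0.05 whatever the difference, and 1 with at least 20 points whatever the q value. The counts that use the q value are not separate from the choice of the gene by its marks. The median absolute difference of 3.93 points became 4.50 points without the event listed at 0. With 1 event per splice-site group it became 6.01 points, over 10 events that are mostly retention events. The median Col minus Ler difference of -0.87 points became -0.93 points without the event listed at 0 and -1.03 points with 1 event per group. Neither median changed when events of another length in Ler were left out, since there were none, and 10 groups were also found from overlapping intervals. Of the 91 folate events, DFD included, 3 were marked (3.30%, against 7.46% of all events), 4 had a q value under 0.05 and at least 10 points (4.40%, against 8.41%) and 7 had a q value under 0.05 alone (7.69%, against 14.3%). These shares include the 27 events of DFD, which was chosen because none of its events is marked. Over the 64 folate events without DFD they were 4.69%, 6.25% and 9.38%, in the same order. The share that differed by at least 20 points, whatever the q value, went the other way. It was 12.1% of the 91 events (11 events) and 15.6% of the 64 (10 events), against 9.82% of all events. Taking 1 event per group in every gene was chosen after seeing the data. The values of single events do not depend on these choices. No paired analysis was possible because the table holds 1 pooled value per ecotype, and for the same reason no replicate could be left out. Depth is not given, so small shares such as 0.211% have no interval.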
